A study of Mus musculus with 12 samples.

Results

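The comparison described here sets the D2-13B6 embryonic stem cell line directly against its reciprocal, the B6-13D2 line. All libraries labelled with either line were taken, 3 of each, so 6 of the 12 libraries in the series are compared. The series profiles RNA in mouse embryonic stem cells of 4 kinds: the inbred strains C57BL/6J (B6) and DBA/2J (D2), and 2 congenic lines that carry each other's strain over part of chromosome 13. By its title, the series asks how regulation of heterochromatin by distant loci relates to strain differences in genome folding.

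D2-13B6 (genotype D2.B6-(rs29224292-rs13469455)/Bakr, line XE 2-4) has a B6 segment of chromosome 13 in a D2 genome. B6-13D2 (genotype B6.D2-(rs30079041-rs51756099)/Bakr, line QJ 6-1) has the D2 segment in a B6 genome. The series design names rs51756099, not rs13469455, as the end of the D2-13B6 segment. The lines therefore differ by strain over most of the genome and by the opposite strain within the segment, and both differences enter every value below at once. Each congenic genotype is represented by a single cell line. The labels' protocols describe the libraries as independent cultures of the line, while the titles call them technical replicates. The p-values thus measure only the spread between these libraries, which may be technical, and genotype cannot be told apart from line. All cells grew in medium with serum, LIF, 1 µM PD0325901, which inhibits the kinase MEK, and 3 µM CHIR99021, which inhibits the kinase GSK3. The parental B6 and D2 libraries served as a yardstick for the sign and size of the strain difference. They also entered the shared filter, scaling and estimate of spread behind the p-values of the congenic comparison. In the labels, 1 B6 title names another line than its companions, and the D2 titles differ from their cell line field.

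A congenic line is made by backcrossing one strain to another while selecting for a chosen segment, so that a trait can be assigned to the segment or to the rest of the genome. Embryonic stem cells correspond to the pluripotent cells of the early embryo and are held in that state by a network of transcription factors around Pou5f1, Sox2 and Nanog. Chromosome 13 of the mouse holds a large cluster of KRAB zinc finger genes, whose proteins bind DNA and recruit the corepressor Trim28 to form heterochromatin, often at transposable elements and at other genes.

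Starts of 4 genes on which the comparison turns are shown first, because the lines differed at these genes in the sense opposite to the parental strains. Each run has 250 bases before and 50 after the annotated start on the gene's own strand, 5′ to 3′, from RefSeq (GRCm38.p6). Of 8 such genes looked up there, 6 were matched. The sequences belong to the C57BL/6J reference, and the D2 sequence was not analysed here. Capitals mark CG in the first 3 runs and CCAAT or its reverse complement ATTGG in the last. The 4 starts lie on chromosome 13 (chr13:67421369-67421668, minus strand, and chr13:66441069-66441368, minus strand), chromosome 6 (chr6:23132937-23133236, minus strand) and chromosome 17 (chr17:34305617-34305916, plus strand).
Zfp459: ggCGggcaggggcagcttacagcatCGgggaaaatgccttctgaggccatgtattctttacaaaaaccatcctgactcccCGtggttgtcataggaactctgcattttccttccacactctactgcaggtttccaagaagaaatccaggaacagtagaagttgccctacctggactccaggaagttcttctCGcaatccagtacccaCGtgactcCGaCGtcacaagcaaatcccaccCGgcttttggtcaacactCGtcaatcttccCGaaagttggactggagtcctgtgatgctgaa
2410141K09Rik: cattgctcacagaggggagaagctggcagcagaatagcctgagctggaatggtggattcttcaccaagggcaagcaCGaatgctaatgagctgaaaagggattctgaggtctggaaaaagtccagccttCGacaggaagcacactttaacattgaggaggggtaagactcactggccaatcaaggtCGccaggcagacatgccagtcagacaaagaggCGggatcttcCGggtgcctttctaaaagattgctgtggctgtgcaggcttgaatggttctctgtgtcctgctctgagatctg
Aass: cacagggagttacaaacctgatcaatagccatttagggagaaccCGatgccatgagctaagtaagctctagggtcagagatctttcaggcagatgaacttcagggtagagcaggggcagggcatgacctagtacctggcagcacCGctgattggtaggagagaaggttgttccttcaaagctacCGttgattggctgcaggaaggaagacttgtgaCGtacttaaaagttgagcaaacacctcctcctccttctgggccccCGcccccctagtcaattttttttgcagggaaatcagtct
H2-Eb1: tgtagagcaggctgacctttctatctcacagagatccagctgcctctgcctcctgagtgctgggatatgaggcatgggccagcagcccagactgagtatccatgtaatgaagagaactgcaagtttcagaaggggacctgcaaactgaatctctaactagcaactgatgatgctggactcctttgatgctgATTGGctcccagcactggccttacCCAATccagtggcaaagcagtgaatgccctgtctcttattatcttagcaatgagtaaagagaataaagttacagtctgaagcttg
CG occurred 10 times in the Zfp459 run and 5 times in those of 2410141K09Rik and Aass, against a median of 7 over 32851 promoters of 300 bases. H2-Eb1 was without a CG, whereas 94.6% of those promoters held at least 1. CCAAT, searched on both strands, was present 2 times at H2-Eb1 and Aass, 1 time at 2410141K09Rik and not at Zfp459, and in 37.4% of all promoters. These matches describe the reference letters and were not tested for any function.

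The 6 congenic libraries held 25921333 to 35251889 expected counts, which are estimated read counts per gene. Levels are given as CPM, counts scaled to library size; they are not corrected for gene length and are compared only between lines, not between genes. Libraries of the same line correlated with r of 0.9966 to 0.9975 across genes and their counts differed by 1.97 to 5.71 times the sampling noise (chi-square divided by its degrees of freedom); none looked like a copy of another. Markers that define embryonic stem cells were present in all 6 libraries: Pou5f1 had 755, 797 and 747 CPM in B6-13D2 and 615, 614 and 626 in D2-13B6, and Nanog 788, 803 and 784 against 653, 670 and 672.

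The lines differed widely. Of 17148 genes tested, 12046 (70.2%) passed an adjusted p of 0.05 in edgeR's quasi-likelihood test with Benjamini-Hochberg adjustment; such genes are said to be called. DESeq2 called 67.1%. D2-13B6 had the higher level at 6586 of them (38.4% of genes tested) and the lower level at 5460 (31.8%). Most differences were small: the median absolute log2 fold change of called genes was 0.61, and 5026 were under 0.5. A difference of 1 log2 unit or more was reached by 3786 called genes (22.1%), of which 2590 (15.1%) were higher and 1196 (6.97%) lower in D2-13B6. Values of the lines did not overlap at 12852 genes (74.9%). Since most tested genes were called, a call alone says little about a gene here, and sizes are given throughout. Log2 fold changes are D2-13B6 over B6-13D2 unless another pair is named.

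The protein-coding genes with the highest and lowest log2 fold change, among those that averaged 2 or more in log2 CPM over the 6 libraries and whose lines did not overlap, are given library by library. Tpm3-rs7, a tropomyosin-related copy on chromosome 14, had 0.277, 0.403 and 0.302 CPM in B6-13D2 and 130, 128 and 133 in D2-13B6 (8.61 on the log2 scale, SE 0.118, edgeR adjusted p 1.3e-18). Its counts are partly divided among similar genes, which makes its share uncertain. Obox6, an oocyte-specific homeobox gene on chromosome 7 (15833241 to 15839678), had 0.831, 0.201 and 0.377 CPM against 40.0, 41.1 and 39.7 (6.41, SE 0.162, adjusted p 7.3e-16). In each of these genes every D2-13B6 library exceeded every B6-13D2 library by a wide margin. Crxos, beside Obox6 on chromosome 7, rose from 0.599 CPM ± 0.0605 (SD, n = 3) to 42.6 ± 2.10, and its neighbour Crx, a photoreceptor homeobox gene, had 0, 1 and 0 counts against 1.48, 0.941 and 0.885 CPM. Nxf3, of the nuclear RNA export factor family, rose by 4.75 (SE 0.146), Adam23, a cell adhesion protein, by 3.73 (SE 0.0697), and Tent5c, a poly(A) polymerase, by 3.50 (SE 0.101). Cd84, a receptor of the SLAM family, rose by 3.49 (SE 0.130) and Mmrn2, an extracellular matrix protein of endothelium, by 3.32 (SE 0.0674). Gm13128 (5.44) and Gm21962 (4.29) completed the 10 highest at this level. Reads of Crxos, Gm13128 and Gm21962 were divided among similar genes, which makes their values uncertain.

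Among the lowest, Pou2f3, a POU transcription factor known for specifying tuft cells, had 43.9, 42.4 and 43.8 CPM in B6-13D2 and 0.685, 0.969 and 0.680 in D2-13B6 (-5.78 on the log2 scale, SE 0.0927, edgeR adjusted p 4.72e-18). Olig1, a transcription factor of the oligodendrocyte lineage on chromosome 16, had 37.0, 38.2 and 37.4 CPM against 0.932, 0.747 and 0.544 (-5.63, SE 0.0968). Nod1, a cytosolic sensor of bacterial peptidoglycan, had 66.3, 65.7 and 60.2 CPM against 2.96, 3.49 and 3.37 (-4.29, SE 0.0887). At all 3 every D2-13B6 library was far below every B6-13D2 library; Pou2f3 and Olig1 stayed under 1 CPM there, while Nod1 was reduced but still detected. Tgm1, a transglutaminase of the cornified envelope, fell by 3.73 on the log2 scale, Rasgrp2, an activator of Rap GTPases, by 3.31 and Gli1, the transcription factor and target of hedgehog signalling, by 3.22. Lrrc31 (-4.17), AA467197 (-4.09), Gm21887 (-5.53) and Gm47283 (-4.05) were the others. Lrrc31 and Rasgrp2 also have counts that are not whole. Gm21887 and Gm47283 are annotated at the distal ends of chromosomes X and Y and have divided reads, so their shares are uncertain.

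**Figure D1:**
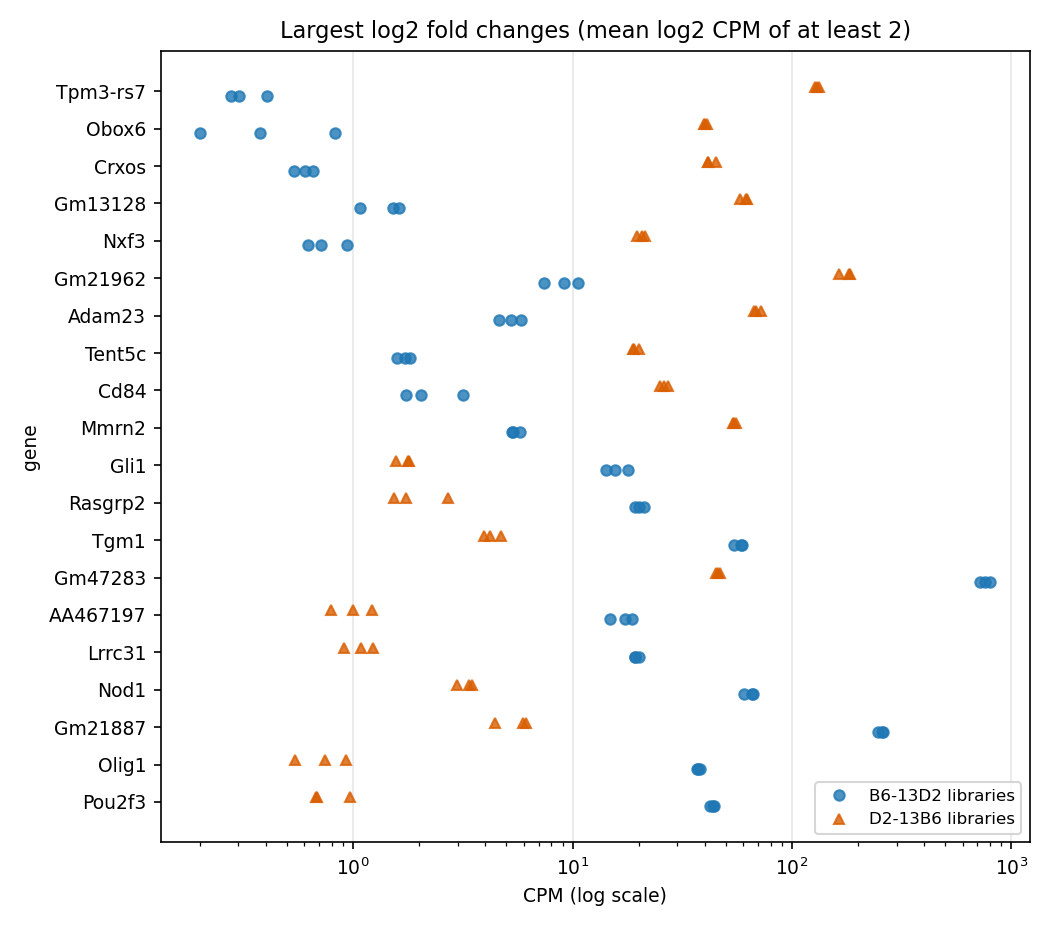
CPM on a log axis of the 10 highest and 10 lowest protein-coding genes by log2 fold change among those averaging 2 or more in log2 CPM; each symbol is 1 library, circles for B6-13D2 and triangles for D2-13B6. The 3 libraries of each line sit together and the lines do not overlap, as the choice of the 20 genes required, with Tpm3-rs7 at under 1 CPM in B6-13D2 and 128 to 133 in D2-13B6.

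A few protein-coding genes were nearly confined to one line, at a mean of at least 5 CPM there and at most 3 counts in every library of the other. Ubd, a ubiquitin-like modifier on chromosome 17 (37193892 to 37196095), had 12.7, 13.7 and 11.8 CPM in B6-13D2 and 0 counts in each D2-13B6 library, at least 142.9-fold lower when set against a floor of 3 counts per library. Pnp2, a purine nucleoside phosphorylase, had 6.83 CPM ± 0.332 in B6-13D2 and 1 to 3 counts per D2-13B6 library. Gm13040 had 6.39 CPM ± 1.87 and 0 to 2 counts; Pnp2 and Gm13040 have divided reads. In the other direction, Acsm4, of the medium-chain acyl-CoA synthetase family, had 1, 0 and 0 counts in B6-13D2 and 6.25, 6.2 and 6.06 CPM in D2-13B6.

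Setting the congenic difference against D2 minus B6 asks, gene by gene, whether the lines differ in the sense of their backgrounds. The parental fold changes come from the parental libraries, not from the 6 congenic ones. Filter, scaling and estimate of spread were shared over all 12 libraries, however, so the calls of the comparisons are not independent. The parental comparison called 10295 genes (60%), of which D2 was higher at 29.8% of genes tested and lower at 30.3%. Of 8432 genes called in both, 7557 (89.6%, Wilson 95% interval 89 to 90.3, counting error only) had the same sign, that is, D2-13B6 differed from B6-13D2 as D2 did from B6. The difference was larger between the congenic lines at 5425 of those 7557, and 3614 genes were called between the congenic lines only. Across all genes tested the log2 fold changes correlated with r = 0.680 and rho = 0.662; genes are not independent replicates. The congenic difference departed from the parental one, by the test of the difference in the same fit, at 7524 genes (43.9%), towards D2-13B6 at 27.3% of genes tested and towards B6-13D2 at 16.5%.

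At 875 genes (5.1% of genes tested) the signs were opposite and both calls were made. By this choice all 875 were also called for the difference, which adds nothing to the 2 calls. Of them, 72 differed by 1 log2 unit or more in each comparison, a size that 11.3% of tested genes reached between D2 and B6. By the naming rule, 6 protein-coding genes outside chromosome 13 led them. Aass, the first enzyme of lysine breakdown (chromosome 6, 23072173 to 23132986), had 14.6, 15.9 and 14.8 CPM in B6-13D2 and 3.10, 2.99 and 2.65 in D2-13B6 (-2.37 on the log2 scale, SE 0.101, edgeR adjusted p 7.01e-13), against 5.09 between D2 and B6. H2-Eb1, the beta chain of an MHC class II molecule, had 23.5, 24 and 24.1 CPM against 8.94, 7.89 and 8.68 (-1.49, SE 0.0676), while D2 exceeded B6 by 3.40. At these genes every B6-13D2 library was above every D2-13B6 library, although D2 was the higher parent.

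The other 4 went the opposite way, higher in D2-13B6 and lower in D2 than in B6. Obox6, given above at 6.41, changed by -4.09 between D2 and B6, a difference of 10.5 (SE 0.226, edgeR adjusted p 1.01e-15). A2m, the protease inhibitor alpha-2-macroglobulin, had 23.9, 25.6 and 22.6 CPM in B6-13D2 and 101, 93.5 and 98.9 in D2-13B6 (2.02, SE 0.0590), against -2.20. Zfp985, a zinc finger gene on chromosome 4, had 24.9, 23.5 and 24.7 CPM against 46.8, 47.3 and 45.4 (0.93, SE 0.0433), against -2.16; its reads are divided among similar genes. Lrp2, the endocytic receptor megalin, rose from 8.20 CPM ± 0.241 to 50.3 ± 2.40 (2.62, SE 0.0591), with only -0.15 between the parents (adjusted p 0.0427). Lrp2 thus entered by the size of its congenic difference rather than by a reversal of comparable size.

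**Figure D2:**
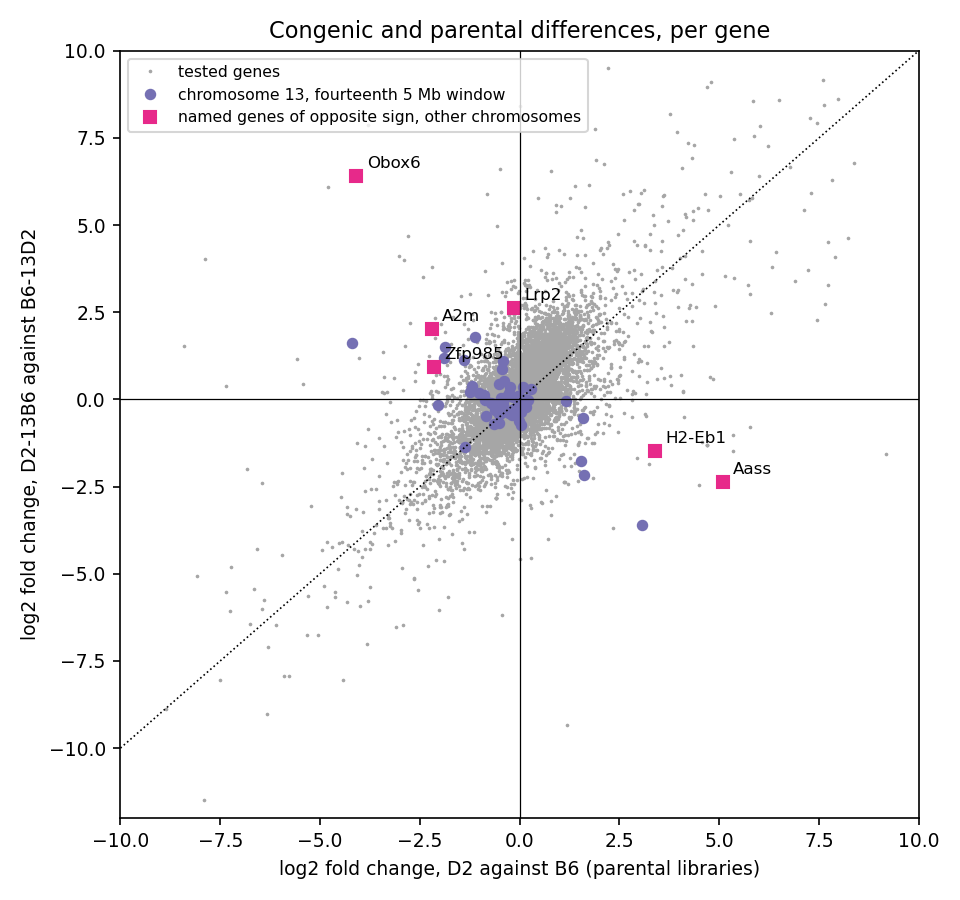
Log2 fold change of D2-13B6 against B6-13D2 (vertical) plotted on that of D2 against B6 (horizontal) for each tested gene, with equality dotted; circles are the 55 tested genes of chromosome 13 between 65 and 70 Mb and squares the 6 named genes of opposite sign elsewhere. Over all tested genes the log2 fold changes of both comparisons tend to rise together (r = 0.680). The circles tend from upper left to lower right (r = -0.697, rho = -0.393), and Obox6, A2m and Aass lie far into the areas of opposite sign.

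Over the whole of chromosome 13 the share of called genes was close to that of all genes. Of its 638 tested genes, 440 (69%) passed the test, with D2-13B6 above B6-13D2 at 214 and below it at 226, with a median log2 fold change of 0.007 against 0.058 over all genes. Among its 294 genes called in both comparisons, 262 (89.1%) had the parental sign, against 89.6% on all other chromosomes. Among genes that differed by 1 log2 unit or more in each comparison the share was 73% on chromosome 13 and 94.5% over all genes. Most of the opposite genes of that size on chromosome 13 lay between 65 and 70 Mb, where the share was 11.1%. Elsewhere on the chromosome only Tcstv1 and Gm21761 were opposite at that size, both with divided reads. The 4 higher genes with the smallest adjusted p were Plk2, a polo-like kinase (59.1, 57.9 and 55.7 CPM against 141, 146 and 152, log2 fold change 1.35, SE 0.0385), Tgfbi, a matrix protein induced by TGF-beta (1.23), Glrx, a glutaredoxin (1.78), and Edil3, an integrin ligand (1.27). The 4 lower genes were Hmgcs1 (303, 290 and 292 CPM against 114, 109 and 115, -1.38, SE 0.0381) and Idi1 (-1.32), both enzymes of the mevalonate pathway, H2afy, which encodes the histone variant macroH2A (-1.28), and Paip1, a partner of the poly(A)-binding protein (-1.21). All 8 had the same sign between D2 and B6.

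One stretch of chromosome 13 was an exception. On a fixed grid of 5 Mb windows, the window from 65 to 70 Mb held 55 tested genes, 25 of them with zinc finger symbols, and only 8 of its 20 genes called in both comparisons (40%) had the parental sign. The other chromosome 13 windows with at least 10 such genes had 76.9% to 100% of the parental sign, and the chromosome without this window 92.7% (254 of 274). On a 10 Mb grid, 18 of 32 genes called in both (56.2%) had the parental sign between 60 and 70 Mb. Over the genome, 323 of the 5 Mb windows held at least 10 genes called in both, with a median of 91.7% of the parental sign. Of these 323, the window from 65 to 70 Mb was the only 1 under 50%. The choice of this window followed from its values, so its low share is a description and not a test.

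The 12 genes of opposite sign in that window included Zfp459, a zinc finger gene (67405709 to 67421418), with 13.1, 14.4 and 13.0 CPM in B6-13D2 and 29.0, 31.1 and 28.6 in D2-13B6 (a log2 difference of 1.13, SE 0.0623, edgeR adjusted p 2.13e-11), against -1.40 between D2 and B6. Nlrp4f, of the Nlrp4 family expressed in oocytes (65177111 to 65205977), had 16.1, 16.5 and 16.2 CPM against 45.3, 42.9 and 49.5 (1.49, SE 0.0664), against -1.86. 2410141K09Rik (66418114 to 66441118) ran the other way, with 110, 116 and 112 CPM in B6-13D2 and 34.9, 33.3 and 30.3 in D2-13B6 (-1.78, SE 0.0612), against 1.55. By the choice of genes of opposite sign, D2-13B6 differed from B6-13D2 at all 3 in the sense of B6 against D2. Positions of the segment's markers are not given here, so these genes are not assigned to the segment. Zfp874a (1.80 against -1.12), Zfp738 (0.87 against -0.45), Gm9625 (1.62 against -4.20), Gm26806 (0.44 against -0.52) and Ube2ql1 (1.17 against -1.90) were also higher in D2-13B6. Gm17514 (-3.60 against 3.07), Gm10772 (-2.17 against 1.62), Gm10324 (-0.53 against 1.59) and Mtrr, methionine synthase reductase (-0.21 against 0.15), were lower. Of the 12, only Nlrp4f, Gm10772, Zfp459, Mtrr and Ube2ql1 had whole counts throughout; the others share reads with similar genes and are uncertain. Of the 25 zinc finger symbols there, 6 were called in both comparisons: Zfp459, Zfp874a and Zfp738 were opposite, and Zfp729b (-0.32 against -0.19), Zfp85 (-0.47 against -0.84) and Zfp369 (0.29 against 0.29) kept the parental sign. Just before the window, Slc35d2, a nucleotide sugar transporter (-1.15 against 0.93), and Fancc, of the Fanconi anaemia pathway (0.55 against -0.98), were opposite as well; both were noticed after their values were seen.

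**Figure D3:**
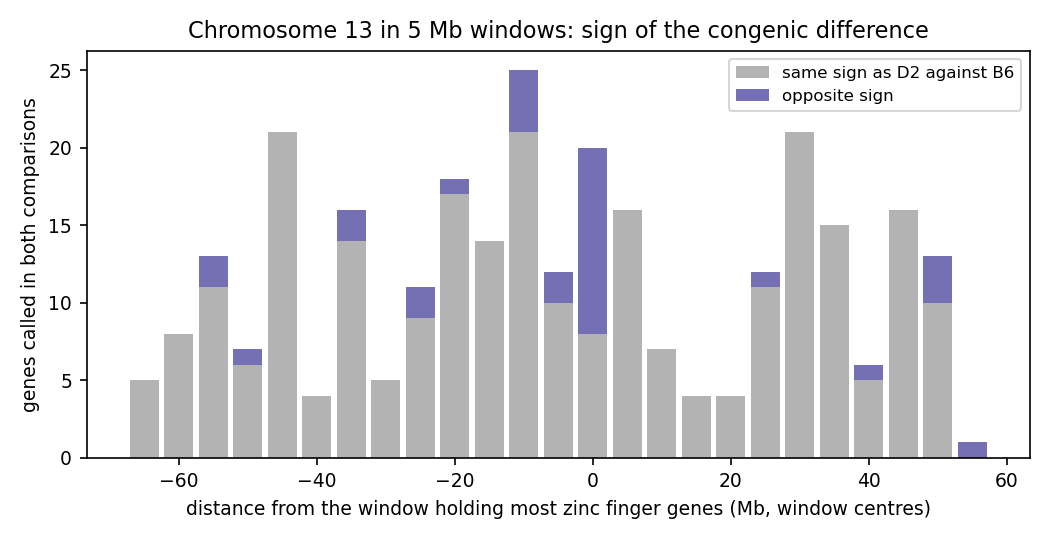
Genes of chromosome 13 called in both comparisons, counted in 5 Mb windows and plotted by distance in Mb from the window that holds most zinc finger genes (65 to 70 Mb); grey marks the parental sign and violet the opposite sign. The central bar has 12 opposite genes of 20, and no other window has more than 4.

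Zinc finger genes were counted on the whole chromosome as well. Of 41 tested on chromosome 13, 7 were higher and 17 lower in D2-13B6, with a median log2 fold change of -0.12; 58.5% were called, below the 70.2% of all genes. Of 417 on other chromosomes, 138 were higher and 130 lower, with a median of 0.016, close to that of all genes.

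Counts in the gene lists that follow stand against a background in which 38.4% of all tested genes were called higher and 31.8% lower, with a median of 0.058. Of the list members named, besides those of the 2-cell-like state, Dppa2, Dppa4, Pou5f1, Nanog, Sall4, Uhrf1, Tap1, H2-Q6, H2-DMb1, Ifit1, Ifitm1, Sycp3, Tuba3b, Pfkp, Eno1, Fn1, Zeb2, Neurod1, Uty, Kdm5d, Eif2s3x, Xist and Tsix do not have whole counts in every library, so reads shared with similar or overlapping genes may enter their values.

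Among pluripotency genes, calls were more often downward in D2-13B6. Of 15 genes of the naive state, the ground state of early embryonic cells, 10 were lower and 1 higher (median -0.25), and of 12 core genes 6 were lower and 2 higher (median -0.065, against 0.058 over all genes). The shares called, 73.3% and 66.7%, were near the 70.2% of all genes. In D2 against B6, 13 naive genes were lower and none higher, and 9 core genes were lower and 3 higher. Tfcp2l1, a naive transcription factor, had 1120, 1042 and 1084 CPM in B6-13D2 and 505, 500 and 495 in D2-13B6 (-1.11, SE 0.0333, edgeR adjusted p 5.91e-15). Dppa3, a protector of maternal methylation marks, fell by 1.74, and Lin28a, an RNA-binding regulator of let-7, by 1.21. Sox2 (-0.48), Esrrb (-0.38), Pou5f1 (-0.31), Nanog (-0.25) and Klf2 (-0.16) fell less, and Zfp42 (-0.11) and Sall4 (0.06) were not called; 4 of 6 genes that define stem cells thus fell and none rose. Dppa2, which activates early embryonic genes, was the clearest exception at 46.8, 47.8 and 46.2 CPM against 118, 119 and 123 (1.36, SE 0.0502); Dppa4 (0.26) and Nr0b1 (0.15) were higher by less, and Nr0b1 was not called without B6-13D2 replicate 1 or 3 or D2-13B6 replicate 1 or 3 (0.11 to 0.14, adjusted p 0.077 to 0.126), nor among genes with whole counts (adjusted p 0.107).

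Genes of the formative and primed states, which follow the naive one, were mostly higher: 11 of 16 tested rose and 2 fell (median 0.43). Lef1, a transcription factor of Wnt signalling, had 8.48, 7.89 and 7.74 CPM in B6-13D2 and 33.1, 35 and 35.1 in D2-13B6 (2.10, SE 0.0623). Fgf5, the usual marker of this transition, rose by 1.84 (SE 0.488) but from 3 to 5 counts per library to 12 to 24. Eomes, a T-box factor, fell by 1.77, and Otx2 by 0.35; Otx2 was not called by DESeq2 (adjusted p 0.0859), with no filter on low counts (adjusted p 0.0856) or in 5 of the 6 fits that left out a library, all but that without D2-13B6 replicate 2 (adjusted p 0.0551 to 0.143). Of 16 tested genes of the 2-cell-like state, a rare state with transcripts of the 2-cell embryo, 9 fell and 1 rose, whereas 15 were higher and 1 lower in D2 than in B6. Zscan4f, a marker of that state, had 18.6, 19.3 and 19.6 CPM against 15.4, 18.0 and 16.4, a change of -0.20, while D2 exceeded B6 by 1.94; it was not called without B6-13D2 replicate 3 or D2-13B6 replicate 1 or 3 (-0.20 to -0.15, adjusted p 0.0514 to 0.114). Duxf3 changed by -1.92 and Gm4340 by -2.80, the latter with 0.0274, 0.913 and 0.102 CPM in D2-13B6. Tdpoz4 had 0 counts in each B6-13D2 library and 5, 3 and 2 in D2-13B6. Only 1 of these 16 genes had whole counts throughout, so reads shared within these families make the values uncertain.

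Heterochromatin genes moved in both directions and by under 1 log2 unit: of 45 tested, 36 (80%, against 70.2% of all genes) were called, 13 of them higher and 23 lower, with a median of -0.12. Uhrf1, which recruits the maintenance methyltransferase, had 879, 902 and 871 CPM in B6-13D2 and 465, 462 and 477 in D2-13B6 (-0.92, SE 0.0351, edgeR adjusted p 1.43e-13). Chaf1b, of the chromatin assembly factor, changed by -0.82 and Dnmt1 by -0.43, while Trim28, the corepressor of KRAB zinc finger proteins, was not called (0.07). The de novo methyltransferase Dnmt3a had 54.3, 48.8 and 50.5 CPM against 97.7, 98.5 and 96.2 (0.93, SE 0.0425), and its cofactor Dnmt3l rose by 0.87. Dnmt3a was lower in D2 than in B6 (-0.65).

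Germline genes that DNA methylation normally silences rose at 14 of 23 tested and fell at 5 (median 0.68), although 14 were lower and 8 higher in D2 than in B6. Brdt, a testis bromodomain protein, had 1.04, 1.31 and 1.13 CPM in B6-13D2 and 10.3, 9.91 and 8.68 in D2-13B6 (3.05, SE 0.128, edgeR adjusted p 4.91e-13). Tuba3b, a testis tubulin with divided reads, rose by 3.26, and Dazl, a germ cell RNA-binding protein, by 1.30. Sycp3 (-3.83), of the synaptonemal complex, Dpep3 (-2.34) and Ddx4 (-1.87) were lower. Imprinted genes, expressed from one parental allele, rose at 21 of 37 and fell at 7 (median 0.56); 75.7% were called, near the share of all genes. H19 had 61.7, 60.7 and 61.3 CPM against 279, 283 and 264 (2.17, SE 0.0401), its neighbour Igf2 rose by 1.23, and Dlk1 by 2.40, while Slc22a18 (-1.84) and Phlda2 (-1.56), neighbours on chromosome 7, fell. Of 7 Obox family genes, Obox6 alone passed the filter on low counts, and Obox1, Obox2, Obox7 and Obox8 had 0 counts in all 6 libraries.

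Interferon response genes were higher at 23 of 33 tested and lower at 7 (median 1.00). Usp18, a protease that removes ISG15, had 1.70, 1.95 and 1.85 CPM in B6-13D2 and 10.3, 10.1 and 9.46 in D2-13B6 (2.44, SE 0.115, edgeR adjusted p 2.7e-12). Isg15 itself (2.00), Ifit1 (2.17), the dynamin-like antiviral gene Mx2 (2.24) and the sensor Ifih1 (1.96) also rose. Ifitm1 (-1.43) and Oasl1 (-1.23) fell. Of 23 tested genes of antigen presentation, 13 rose and 5 fell (median 0.60). Those that rose included B2m, the class I light chain, with 114, 128 and 123 CPM against 269, 270 and 270 (1.15, SE 0.0392), the peptide transporter gene Tap1 (1.39), the class I gene H2-Q6 (1.44) and Nlrc5, an activator of class I genes (1.96). The 5 that fell, Cd74 (-2.32), H2-DMb1 (-1.94), H2-Oa (-1.76), H2-Eb1 (-1.49) and H2-Ab1 (-1.32), all belong to the class II pathway. Another class II gene, H2-DMa, rose by 0.71, and H2-Aa was not called (0.16).

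Targets of the signalling pathways that the medium acts on were higher in D2-13B6 in most cases. Of 18 genes induced by MAPK signalling, 16 were higher and 1 lower in D2 than in B6. Between the congenic lines 13 rose and 3 fell (median 0.66), and Fosl1 rose by 1.54, Dusp4 by 1.38 and Myc by 1.26. Spry2, a feedback inhibitor, was the main exception, with 91.5, 86.5 and 87.6 CPM in B6-13D2 and 25.4, 25.9 and 24.9 in D2-13B6 (-1.80, SE 0.0407, edgeR adjusted p 1.95e-16); Etv4 fell by 0.51. Of 18 Wnt targets, 12 rose and 4 fell (median 0.55): Lgr5 (2.41) and Cdx2 (2.31) rose from at most 0.302 and 1.17 CPM, Axin2 rose by 0.49, and Cdx1 (-1.43) and Sp5 (-0.75) fell. Genes of the LIF and STAT3 pathway divided the other way, 5 higher and 8 lower of 14 (median -0.21). The receptor chains Osmr (1.36) and Il6st (0.70) rose, while the target Bcl3 (-1.42) fell. Of 16 targets of p53, 11 rose and 1 fell (median 0.54), with 75% called; between D2 and B6, 13 were higher and 1 lower. Perp (1.71), Fas (1.5), Ccng1 (1.03) and Cdkn1a, the p21 inhibitor of the cell cycle, with 217, 228 and 218 CPM against 401, 401 and 390 (0.85, SE 0.0401), rose; Sesn2 (0.10) and Bax (-0.16) moved little, and Sesn2 was not called without either line's replicate 3 (adjusted p 0.0861 and 0.0806), with the 6 congenic libraries alone (0.061, adjusted p 0.0645) or among genes with whole counts (0.040, adjusted p 0.295).

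Glycolysis was lower in D2-13B6 almost throughout. Of 20 genes, 18 fell, 1 rose and Eno1 was not called (median -0.54). Ldhb, a lactate dehydrogenase subunit, had 199, 213 and 192 CPM in B6-13D2 and 48.6, 47.1 and 48.1 in D2-13B6 (-2.07, SE 0.0490, edgeR adjusted p 3.27e-16). Aldoc, an aldolase, fell by 1.86, Pdk1, which restrains entry of pyruvate into mitochondria, by 1.27 and Hk2, a hexokinase, by 0.90; Pfkp fell by 0.27 and Eno2 rose by 0.46. The summed level of the 20 genes was 19745 to 20648 CPM in B6-13D2 and 15126 to 15276 in D2-13B6. In D2 against B6 the same list had 18 lower and 1 higher. Of 9 genes of lysine breakdown, 5 fell and 3 rose (median -0.36); after Aass came Gcdh, glutaryl-CoA dehydrogenase (-1.07), while Crym (1.51) and Aadat (1.74, from 0.208 CPM or less) rose. Without B6-13D2 replicate 2, Aadat was not called (1.30, adjusted p 0.0594).

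Markers of other cell types were counted beside these lists. All 16 markers of feeder fibroblasts were called higher in D2-13B6 (median 1.31), as all 16 were in D2 against B6 (median 0.72). Their summed level was 6878 to 6982 CPM in B6-13D2 and 12339 to 12925 in D2-13B6, and none was at 0. Col1a1, a fibrillar collagen, had 2135, 2080 and 2063 CPM against 5308, 5257 and 5116 (1.32, SE 0.0504), and Col3a1 rose by 1.69. Lum (2.31) and Dcn (2.18), matrix proteoglycans that define fibroblasts, rose but stayed at 3.61 CPM or less, and Fn1 (0.09) hardly moved. Fn1 was not called without either line's replicate 1, B6-13D2 replicate 3 or D2-13B6 replicate 2 (adjusted p 0.0529 to 0.108), with the 6 congenic libraries alone (0.047, adjusted p 0.11) or at a mean CPM of at least 1 (adjusted p 0.0977), so the count of 16 includes a marginal call. In D2 against B6, 17 of 19 contractile and mesenchymal genes were higher and 2 lower. In D2-13B6 against B6-13D2, 16 of the 19 rose and 3 fell (median 1.07, summed 4685 to 4776 CPM in B6-13D2 and 8271 to 8437 in D2-13B6). Acta2 (1.40), Actg2 (2.00) and Zeb2 (1.56) rose, and the 3 that fell were the epithelial genes Cdh1 (554, 559 and 542 against 244, 245 and 255 CPM, -1.15, SE 0.0376), Cldn6 (-1.54) and Epcam (-0.80). In these bulk libraries more cells of a type and more RNA per cell cannot be told apart. The part of such cells in the lower pluripotency and higher interferon, matrix and signalling genes was not tested; the summed level of the 6 genes defining stem cells was 2998 to 3152 CPM in B6-13D2 and 2497 to 2533 in D2-13B6.

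Primitive endoderm markers rose at 10 of 13 tested and fell at 2 (median 1.23; summed 417 to 428 against 835 to 871 CPM). Gata6 (2.00) and Sox17 (1.56), which define the lineage, stayed at 3.50 CPM or less, Gata4 was not called (-0.06) and Sox7 fell (-1.17). Col4a1, a basement membrane collagen, rose by 1.62 and Lama1 fell by 0.64. Trophectoderm markers divided, 5 higher and 4 lower of 9, and their summed level was 107 to 111 CPM in B6-13D2 and 69 to 74.3 in D2-13B6; without Tfap2c it was 41.4 to 44.1 and 57 to 62.5 CPM, the other way round. Tfap2c had 66.0, 68.1 and 63.9 CPM against 12.1, 11.6 and 11.8 (-2.48, SE 0.0554), Krt7 fell by 2.01, and Hand1 rose from 3 to 4 counts per library to 63 to 95. Of 10 neural markers 5 rose and 3 fell (summed 167 to 178 against 113 to 116 CPM). The direction of this sum rests on Olig1 and Olig2: without them it was 93.8 to 97.3 against 112 to 115 CPM. Olig2, beside Olig1 on chromosome 16, had 36.6, 42.7 and 38.2 CPM in B6-13D2 and 4, 3 and 1 counts in the D2-13B6 libraries, Sox1 fell by 1.17, Neurod1 rose by 1.67, and Pax6 stayed at or under 0.204 CPM and was not called without B6-13D2 replicate 1 or 3 or D2-13B6 replicate 2 or 3 (adjusted p 0.0506 to 0.104).

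**Figure D4:**
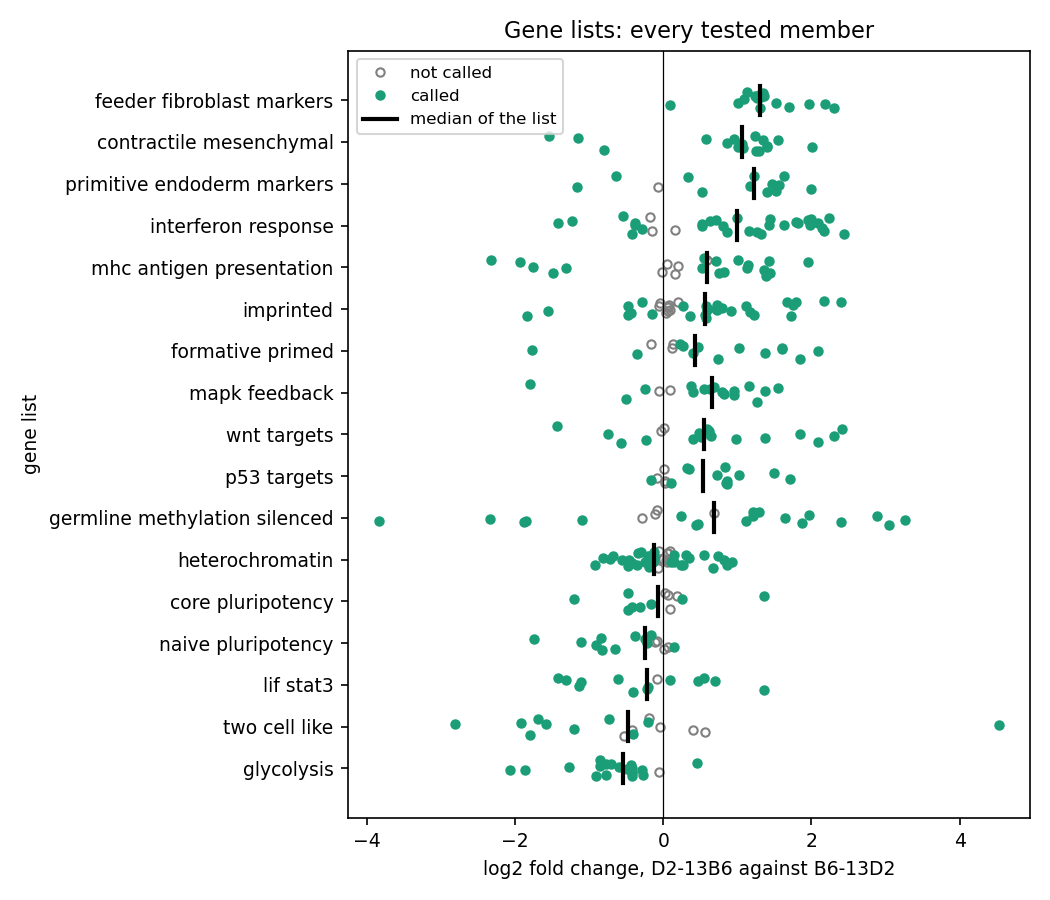
Log2 fold change of D2-13B6 against B6-13D2 for every tested member of 17 gene lists; filled points are called, open points are not, and bars are list medians. Feeder fibroblast and contractile lists lie to the right (medians 1.31 and 1.07), glycolysis to the left (-0.54), and heterochromatin genes to both sides of 0 (-0.12).

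Chromosomes were compared by the median of their genes in each library, relative to the gene's mean over the 6 libraries and to the autosomal median. Chromosome 11 lay at -0.164, -0.165 and -0.158 in B6-13D2 and 0.161, 0.165 and 0.168 in D2-13B6, a log2 shift of 0.33 or a ratio of 1.25. The 18 other autosomes shifted by -0.138 to 0.100. The exact permutation test, two-sided, gave p = 0.1 for chromosome 11, the smallest that 3 against 3 libraries can give, and 0.11 adjusted over 21 chromosomes; 18 others reached the same p. The median of the same genes was 0.003 between D2 and B6, and all 20 windows of chromosome 11 with at least 20 tested genes had a median log2 fold change above 0, from 0.039 to 0.678. The calls on this chromosome were 857 upward and 202 downward, and 512 of 692 genes called in both (74%) had the parental sign; 169 of its 180 opposite genes were higher in D2-13B6. Genes of chromosome 11 named above, such as Col1a1, Ccng1, Axin2 and Hand1, were higher as the chromosome was, while Aldoc and Etv4 were lower. How far the shift enters the values of these genes was not tested.

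Chromosome Y, with 14 tested genes, was shifted by 0.98, a ratio of 1.98, against -0.127 between D2 and B6, and chromosome X by 0.19, which was 0.066 among genes averaging 10 CPM or more. Of 13 called genes of chromosome Y, 11 were higher and 2 lower, the latter being Gm47283 (-4.05) and Mid1-ps1 (-3.26), both with divided reads. The 7 tested Y-linked genes of the list were among the higher ones: the demethylase gene Kdm5d had 2.77, 2.92 and 2.45 CPM in B6-13D2 and 9.70, 10.3 and 10.1 in D2-13B6 (1.88, SE 0.103), the helicase gene Ddx3y rose by 0.69 and Uty by 0.35. Of 9 genes of X inactivation and escape 6 rose and 2 fell. Xist, the RNA that coats the inactive X chromosome, had 48.4, 43.5 and 51.0 CPM against 148, 143 and 134 (1.57, SE 0.0547); reads of Xist and its antisense partner Tsix (0.74) cannot be told apart without strand. Jpx rose by 2.05 from 2 to 3 counts per library, Eif2s3x fell by 0.23, and Kdm5c by 0.08. Kdm5c was called in only 1 of the 6 fits that left out a library, that without B6-13D2 replicate 2 (adjusted p 0.0527 to 0.11 in the others), and not with no filter on low counts (adjusted p 0.092); 5 genes of this list were called without B6-13D2 replicate 1 or 3 or D2-13B6 replicate 2.

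**Figure D5:**
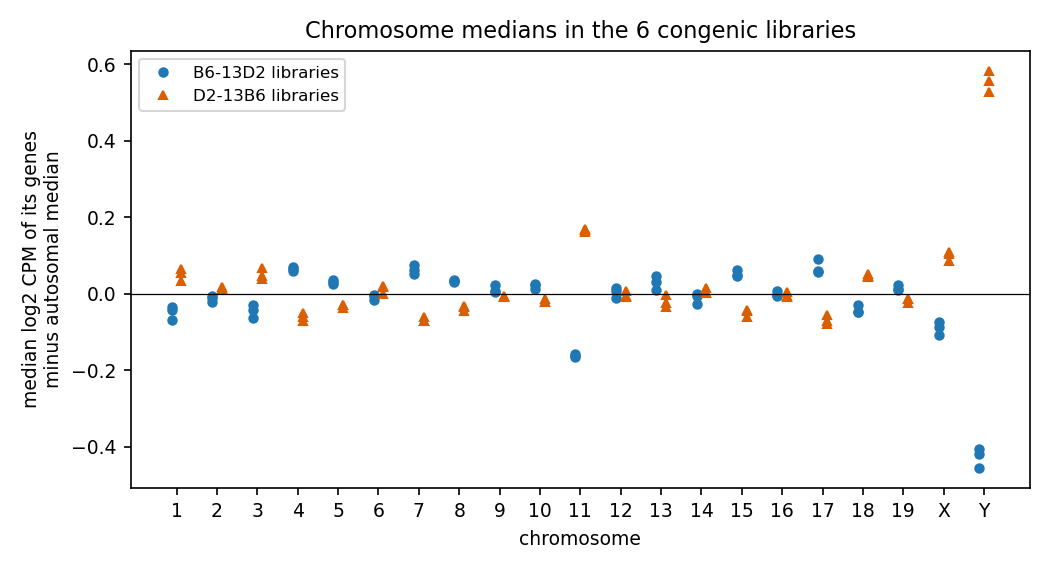
Median over a chromosome's genes of log2 CPM relative to each gene's mean over the 6 libraries, minus the autosomal median of the library; circles are B6-13D2 libraries and triangles D2-13B6 libraries. Chromosome 11 separates the lines by 0.33 and chromosome Y by 0.98, with replicates close together, while chromosome 13 differs by -0.050 (-0.129 among genes averaging 10 CPM or more).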

How the data were processed

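RNA was sequenced as 150 bp reads from cultured cells. The deposited values are the authors' expected counts for each gene, estimated read numbers that divide reads shared by similar genes and need not be whole; 88.15% of values were whole to within 1e-06. The submitters' processing notes name mm10, Bowtie 1.0.0 and edgeR 3.34.1 without their roles; how strand was used is not given in the sources used here. The molecule field of the labels reads genomic DNA, although the values are RNA counts. Of 43346 gene identifiers, 42462 were found in GENCODE M21 (GRCm38, the build of the coordinates given); the other 884 held 0.361% of reads.

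Expected counts were rounded, filtered (filterByExpr, minimum count 10), scaled by TMM and fitted with edgeR 4.0.16 in R 4.3.3 by quasi-likelihood over all 12 libraries with a mean for each of 4 groups (8 residual degrees of freedom). The contrasts were D2-13B6 minus B6-13D2, D2 minus B6 and their difference, with Benjamini-Hochberg adjustment over all genes tested. Library totals of 25921333 to 35251889 set the precision. On simulated counts for this comparison (16713 genes tested), edgeR recovered 89.6% of genes changed 1.5-fold and 91% of those changed 2-fold, with 8 false calls. Few genes were changed there (67 at each of these sizes), and all genes had the same relative spread. In the data 70.2% of genes were called, so the 8 false calls are no estimate of the errors among them. The alternatives were DESeq2 1.42.0, RLE scaling, other filters, the congenic libraries alone, whole counts alone, a fold threshold, a replicate term and leaving out each library.

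The comparison, the 24 gene lists and the rules for named genes were chosen with earlier results of these data known. Named genes were the 10 protein-coding genes with the largest change in each direction at a mean log2 CPM of at least 2 over the 6 congenic libraries with no overlap, the 4 of smallest adjusted p in each direction on chromosome 13, the 6 of opposite sign elsewhere with the smallest adjusted p for the difference, those confined to one line, and list members; further genes were named after their values were seen. Promoters came from RefSeq. Some items are not reported here.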

Additional observations from a re-analysis of the deposited data

Results flagged for a closer look

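The congenic difference departed from the parental one at 91 of the 124 tested genes taken by the rule for named genes, by edgeR's test of the difference within the same fit (3 libraries in each of the 4 groups, adjusted p under 0.05 over all genes). Values in this section are the log2 fold change of D2-13B6 over B6-13D2 minus that of D2 over B6. The 6 genes of opposite sign outside chromosome 13 were chosen by this same test and others for the size of their congenic difference, so the count is in part fixed by the choice. Since 43.9% of all tested genes met the same criterion, membership of this group says little about a single gene, and the size is what is given. A positive value means that the congenic lines differed more towards D2-13B6 than the parents differed towards D2.

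Among the most extreme genes the values were Obox6 (10.50), Crxos (4.41), Gm21962 (3.29), Cd84 (2.58), Gm13128 (2.57), Tent5c (2.25), Nxf3 (1.49) and Adam23 (0.29) on the positive side, and Gm13040 (-3.64), Pou2f3 (-1.97), Rasgrp2 (-1.53), Gli1 (-1.27), Mmrn2 (-1.02), Gm47283 (-0.93), Gm21887 (-0.91), Tgm1 (-0.76) and Nod1 (-0.41) on the negative side. Pou2f3, Gli1, Rasgrp2, Tgm1 and Nod1 were lower in D2 than in B6 as well, and lower by more between the congenic lines. The genes of opposite sign outside chromosome 13 gave A2m (4.23), Zfp985 (3.09) and Lrp2 (2.77) against Aass (-7.46) and H2-Eb1 (-4.89). The chromosome 13 genes chosen for their adjusted p gave Plk2 (0.98), Edil3 (0.70), Tgfbi (0.49), Idi1 (-0.63), Hmgcs1 (-0.53), H2afy (-0.41) and Paip1 (-0.31), all with the same sign in both comparisons; those of opposite sign between 65 and 70 Mb are described above and are not among the 124.

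Pluripotency and early embryonic genes gave Nr0b1 (1.19), Dppa2 (0.85), Dppa4 (0.48), Lin28a (0.31) and Lef1 (0.50) and, below 0, Duxf3 (-3.02), Zscan4f (-2.15), Eomes (-0.79), Otx2 (-0.75), Sox2 (-0.19) and Tfcp2l1 (-0.14). The 2-cell marker Zscan4f was far higher in D2 than in B6, while its congenic difference was near 0. Signalling genes gave Osmr (0.84), Cdx2 (0.76), Fosl1 (0.75), Dusp4 (0.39) and Il6st (0.37) on one side and Etv4 (-1.81), Cdx1 (-1.03), Sp5 (-1.03), Bcl3 (-1.01) and Spry2 (-0.76) on the other. Etv4 was higher in D2 than in B6 and lower in D2-13B6 than in B6-13D2. Metabolic genes gave Aldoc (-1.33), Ldhb (-0.95), Pfkp (0.18) and Crym (0.93), and the p53 targets Perp (1.09) and Fas (1.03).

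Chromatin and germline genes gave Brdt (3.09), Dnmt3a (1.58), Uhrf1 (-0.51), Chaf1b (-0.24) and Dnmt3l (-0.23), and imprinted genes H19 (1.48), Dlk1 (1.48) and Phlda2 (0.61). Brdt hardly differed between D2 and B6, so its value is nearly its whole congenic difference. Immune genes gave Mx2 (1.37), Usp18 (1.06), Nlrc5 (1.03), H2-DMb1 (-1.37), Ifitm1 (-1.06) and Oasl1 (-0.85). Markers of other cell types gave Hand1 (3.39), Neurod1 (1.58), Dcn (1.16), Lum (1.07), Gata6 (1.03), Col4a1 (0.92), Actg2 (0.86), Zeb2 (0.83), Cdh1 (0.72) and Pdgfrb (0.29) and Tfap2c (-2.10), Krt7 (-1.16), Lama1 (-0.90) and Cldn6 (-0.40). Cdh1 was lower by less between the congenic lines than between the parents. Sex-linked genes gave Usp9y (2.79), Kdm5d (2.57), Jpx (2.07), Xist (0.95), Ddx3y (0.45), Uty (0.34) and Eif2s3x (-0.16). The Y-linked ones among these were all positive, while Gm47283, annotated on chromosome Y with divided reads, gave -0.93.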

How the results depend on the processing

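For the 124 tested genes taken by the naming rule, 1810 alternative values were computed, of which none reversed and 1747 kept their side of the threshold. Of the 124 genes, 8 lost their call in a setting other than the fold threshold (Nr0b1, Otx2, Zscan4f, Aadat, Sesn2, Fn1, Pax6 and Kdm5c), and 27 were under that threshold. Of the called genes, 11966 stayed called with the same sign under RLE scaling and 11462 under DESeq2. Requiring 1 log2 unit or more left 3786 genes, 2590 higher and 1196 lower (68.4% higher). Same-sign shares were then 94.5% over all genes, 73% on chromosome 13, 98.1% on chromosome 11 and 11.1% between 65 and 70 Mb of chromosome 13, with 72 genes opposite over the genome. The 11.1% rests on fewer genes than the 20 called in both there at any size. Members called at that size numbered 2 for naive, 2 for core, 7 for formative, 0 for heterochromatin, 11 for imprinted, 19 for interferon, 5 for MAPK, 6 for Wnt, 5 for LIF, 3 for glycolysis, 4 for lysine, 3 for p53, 0 for stem cell markers, 2 for X inactivation, 129 for chromosome 13 as a whole, 3 for its zinc fingers and 49 for other zinc fingers. The share of called genes higher in D2-13B6 was 54.7%, and 50.5% at a mean CPM of at least 1 and with the congenic libraries alone, 51.2% with whole counts and 52.1% without chromosome 11. The same-sign share of all genes was 90.3% with DESeq2 and with chromosome medians removed, 88.9% at a mean CPM of at least 1, 91% without chromosome 11, and 90% to 90.6% with single libraries left out. On chromosome 11 it was 81.1% with RLE, 81.8% with DESeq2, 80.2% at a mean CPM of at least 1, 79.3% with whole counts and 82.7% with chromosome medians removed. The settings without chromosome 11 and with medians removed were chosen after seeing the data. At a mean CPM of at least 10 the chromosome shifts were 0.371 for 11, -0.129 for 13, 0.066 for X and 0.878 for Y, and 0.310 for 11 with whole counts; single libraries left out gave 0.322 to 0.332 for 11 and 0.934 to 1.041 for Y. With whole counts alone, members called numbered 3 for core, 1 for 2-cell, 23 for heterochromatin, 9 for antigen presentation, 11 for glycolysis, 3 for Y-linked, 3 for X inactivation and 13 for chromosome 13 zinc fingers; fewer genes are tested there. The 2-cell list had 6 and the germline list 12 when a mean CPM of 1 was required. X inactivation had 5 with no filter and 5 to 7 with single libraries left out. Where no construction is named, the cause was not tested. Replicate numbers did not pair the samples (same-number deviations correlated at 0.024, -0.01 and -0.02); the fit with the replicate block called 11912 genes, 11852 of them shared in sign, and none of the 124 lost its call. Depth limits genes with few counts, such as Fgf5, Jpx and Pax6.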

Other observations

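Several gene groups not covered above were counted after their values had been seen, so the counts are descriptions. Cholesterol synthesis genes were lower in D2-13B6 at 21 of 25 tested and higher at 3 (median log2 fold change -0.93). Dhcr7, the last enzyme of the pathway, had 111, 115 and 109 CPM in B6-13D2 and 23.1, 23.9 and 24.3 in D2-13B6 (-2.23, edgeR adjusted p 4.17e-17), and Insig1, a brake on the pathway, fell by 1.52. Of 28 genes of DNA replication, 25 fell and none rose (median -0.48), with Pold1, the catalytic subunit of DNA polymerase delta, at -1.08, the helicase gene Mcm4 at -0.70 and the sliding clamp gene Pcna at -0.68.

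Collagen genes rose at 29 of 40 and fell at 4 (median 1.26). Clustered protocadherins, which give neurons their surface identity, rose at 30 of 36, and the 1 that fell was Pcdhgc4 (-2.91); only 9 of the 36 had whole counts. Histone genes of the cluster on chromosome 13 rose at 17 of 44 with none lower (median 0.69), a share close to the 38.4% of all tested genes called higher; 6 of the 44 had whole counts. Of 9 PRAME family genes 6 rose and 1 fell. Pramel7, known for promoting the naive state, had 5.43, 5.17 and 5.51 CPM in B6-13D2 and 42.0, 43.9 and 44.0 in D2-13B6 (3.01). Hedgehog pathway genes divided, 7 higher and 4 lower of 13, although the pathway's target Gli1 fell by 3.22.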
